A study of Homo sapiens with 8 samples.

Results

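Interferon response and antigen presentation genes were followed over 4 treatments of a human lung cancer cell line. The set held 43 named genes, and all probe sets whose array annotation gives 1 of these symbols and no other were taken. That gave 70 probe sets for 42 genes, out of 22283 probe sets on the array. STAT2 had no such probe set in the annotation used and was not analysed here. A probe set annotated to both IFITM2 and IFITM1 and another annotated to both RNF31 and IRF9 were left out. These genes were among 11963 with a probe set of their own, and the rule used no measured value.

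The cells were a non-small cell lung adenocarcinoma line, which the labels do not name, measured on Affymetrix human genome arrays after 24 h. They received rosiglitazone, an agonist of the nuclear receptor PPARγ, at 1 µM, carboplatin, a platinum drug that crosslinks DNA, at 10 µM, both drugs together, or the control treatment. The doses inside the combination are not restated in the labels, and the control is given in one place as plain medium and in another as DMSO or control. Each of the 4 groups had 2 arrays, and nothing says that these came from separate cultures, so every p-value measures the spread between arrays, which may be technical.

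Type I interferons act through the receptor IFNAR1 and IFNAR2 and the kinases JAK1 and TYK2, and transcription factors that include IRF9 then bind interferon-stimulated response elements in the promoters of antiviral genes. Interferon gamma raises IRF1 and, with it, the machinery of antigen presentation. In that machinery immunoproteasome subunits cut peptides, the TAP transporter carries them into the endoplasmic reticulum, and HLA heavy chains present them at the cell surface together with beta-2-microglobulin. In epithelial cells most of these genes have a basal level and rise strongly when interferon is present. Damaged DNA can induce interferon genes through cytosolic DNA sensing, and PPARγ ligands are known from mouse macrophages to repress inflammatory and interferon-driven genes.

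Promoter letters were searched for known elements. The choice of genes used no letters, but it took known interferon response genes, so the share of response elements is not independent of that choice. RefSeq promoter entries (GRCh38.p14, 250 bases before to 50 after a start site) were matched for 35 of the 42 genes. The core of the interferon-stimulated response element, searched on both strands as GAAA, any 2 bases and GAAA, occurred in 22 of the 35 (62.9%), against 996 of 27305 promoters in the whole table (3.65%). The STAT dimer element, searched as TTC, any 3 bases and GAA, which reads the same on both strands, occurred in 9 of the 35 (25.7%) and in 7.88% of all promoters, and 5 promoters held both. The elements searched can overlap one another. An NF-κB type site, searched on both strands as GGGGA, any base and TTCC, or as GGGAA followed by TTTCC, occurred only in the OAS3 promoter among the 35 (2.86%) and in 0.538% of all promoters. A match of letters is a description and does not show that a factor binds there.

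The stretches below are from promoters of members whose values are described further on, and they were picked because they hold an element. Of promoters with an entry, the response element core was in 11 of 13 antiviral effectors, 5 of 7 other interferon-induced genes, 1 of 2 ISG15 conjugation genes, 2 of 4 peptide supply genes, 2 of 5 class I genes and 1 of 4 signalling genes. It was not found in those of ADAR, OAS1, PSMB8, PSMB9, HLA-B, HLA-C and HLA-G, among others. Capitals mark the searched element, the response element core or its reverse complement, and for IRF1 the STAT dimer element.
IFIT3: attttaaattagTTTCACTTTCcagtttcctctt
ISG15: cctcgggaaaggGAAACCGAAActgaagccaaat
OAS3: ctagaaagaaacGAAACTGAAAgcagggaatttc
IFITM3: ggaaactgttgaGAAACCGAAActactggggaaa
GBP1: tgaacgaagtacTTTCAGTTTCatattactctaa
LGALS3BP: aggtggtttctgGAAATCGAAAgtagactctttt
TAP2: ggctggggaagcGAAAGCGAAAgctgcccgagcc
B2M: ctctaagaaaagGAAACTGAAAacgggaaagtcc
IRF1: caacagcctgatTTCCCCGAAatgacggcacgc
All lie upstream of the annotated start site, with the 5′ end of the element 122 bases before it for IFIT3, 107 for ISG15, 143 for OAS3, 35 for IFITM3, 127 for GBP1, 58 for LGALS3BP, 58 for TAP2, 138 for B2M and 124 for IRF1. The plus-strand stretches are chr10:89327863-89327896 (IFIT3), chr1:1013378-1013411 (ISG15), chr12:112938319-112938352 (OAS3) and chr15:44711367-44711400 (B2M). The minus-strand stretches are chr11:320874-320907 (IFITM3), chr1:89065314-89065347 (GBP1), chr17:78979960-78979993 (LGALS3BP), chr6:32838776-32838809 (TAP2) and chr5:132490877-132490909 (IRF1).

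Values are log2(signal + 16) after quantile normalization, so the floor of the scale is 4 and changes of dim genes are understated. Probe sets whose mean over all 8 arrays was below the 40th percentile (5.38) were not tested, which left 57 of the 70 probe sets and 35 of the 42 genes. A gene is represented by its brightest probe set. Changes are differences on the log2 scale with the standard error (SE) from limma, fitted to all 8 arrays and 13338 probe sets, and adjusted p-values are Benjamini-Hochberg values over all of these. The median deposited signal of an array ran from 36.2 to 54.3, arrays of a group correlated no more closely than some arrays of different groups, and the number of arrays limits the precision. Of 6 epithelial marker genes 5 were above the filter, KRT7, KRT8, KRT18, KRT19 and CDH1, while EPCAM was below it. Of 3 lung lineage markers with a probe set the surfactant genes SFTPB (5.71 to 6.33) and SFTPC (5.23 to 6.46) were above the filter, and the lineage factor NKX2-1 (4.25 to 5.40) was below it. Of 5 fibroblast and endothelial markers only COL1A1 (6.95 to 7.37) was above it. The leukocyte markers PTPRC (4.08 to 4.96) and CD14 (4.26 to 5.52) lay below the filter in mean, although CD3E (5.59 to 6.58) did not. CD3E was at 6.58 and 6.48 in rosiglitazone arrays, against 6.03 and 5.98 in control arrays, and its part in the results was not tested.

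No member passed the threshold of 0.05 in any of the 8 comparisons made. Adjusted p-values of the 35 representative probe sets were no lower than 0.125, the value of OASL for rosiglitazone over both backgrounds. In the arrays as a whole the median difference of the 35 genes from their control means was 0.08 and 0.04 under rosiglitazone, 0.03 and -0.02 under carboplatin, 0.01 and 0.04 under the combination, and -0.03 and 0.03 in the control arrays themselves. All 8 of these medians lay within 0.08 of the control mean.

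**Figure D1:**
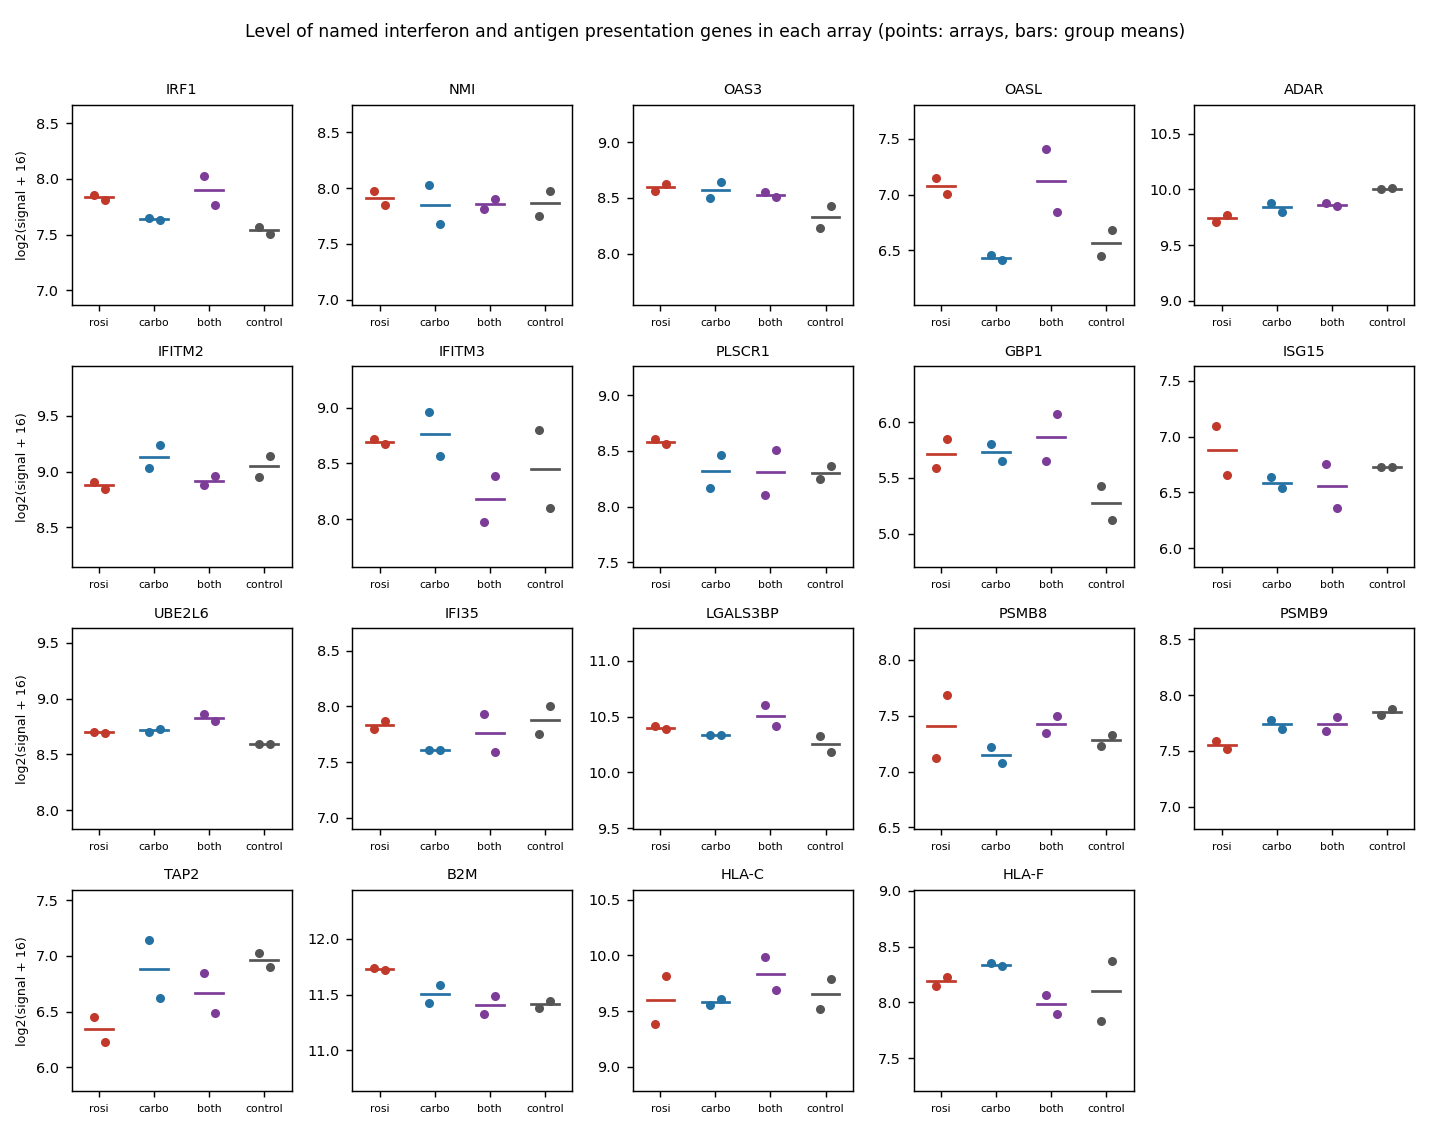
Level of 19 members in each array, as quantile normalized log2(signal + 16), with a point for each array and a bar for the mean of each group of 2. Every panel spans the same height in log2 units. The panels include the members of smallest p, and in several of them groups do not overlap, such as rosiglitazone and control for B2M, TAP2 and ADAR.

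For rosiglitazone against control, the question is whether the PPARγ ligand alone moved these genes. None of the 57 member probe sets passed with limma, where 48 of 13338 (0.36%) did so among all probe sets. At an unadjusted p under 0.05 there were 6 of 57 (10.5%), and 10.4% of all probe sets reached it. The 2 rosiglitazone arrays lay wholly above or wholly below the 2 control arrays in 27 of 57 (47.4%), 14 of them above, and in 42% of all probe sets. Counted by gene it was 20 of 35 (57.1%), against 42.9% of all genes. Of the 35 genes 20 were higher and 15 lower, with a median change of 0.05, against a median of -0.03 over the 8030 genes tested. The absolute change had a median of 0.17 among the members and 0.17 among all genes. The 95% interval of the change lay inside a 2-fold change either way for 32 of the 35 genes, the others being IFIT3, GBP1 and TAP2, and inside a 1.5-fold change for 17. These intervals are not adjusted for the number of genes.

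B2M, the light chain shared by all class I molecules, had the smallest p for this comparison. Its brightest probe set read 11.74 and 11.72 in rosiglitazone arrays, against 11.38 and 11.45 in control arrays. Both rosiglitazone arrays lay above both control arrays, by 0.32 ± 0.10 (SE, 1.25-fold, adjusted p = 0.28). The other B2M probe set did not share this, with 11.02 and 11.16 in rosiglitazone arrays against 11.03 and 11.22 in control arrays.

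TAP2, a subunit of the peptide transporter, read 6.45 and 6.23 in rosiglitazone arrays, against 7.03 and 6.90 in control arrays. The groups did not overlap, and the change was -0.62 ± 0.22 (95% interval -1.12 to -0.13, adjusted p = 0.37). A second TAP2 probe set above the filter was at 5.91 and 5.84 with rosiglitazone and 5.95 and 5.79 in control, a change of 0.01. ADAR, which edits adenosine in double-stranded RNA, was at 9.71 and 9.77 with rosiglitazone and at 10.00 and 10.01 in control, a change of -0.26 ± 0.11 (adjusted p = 0.44) that was -0.02 with the deposited scaling.

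**Figure D2:**
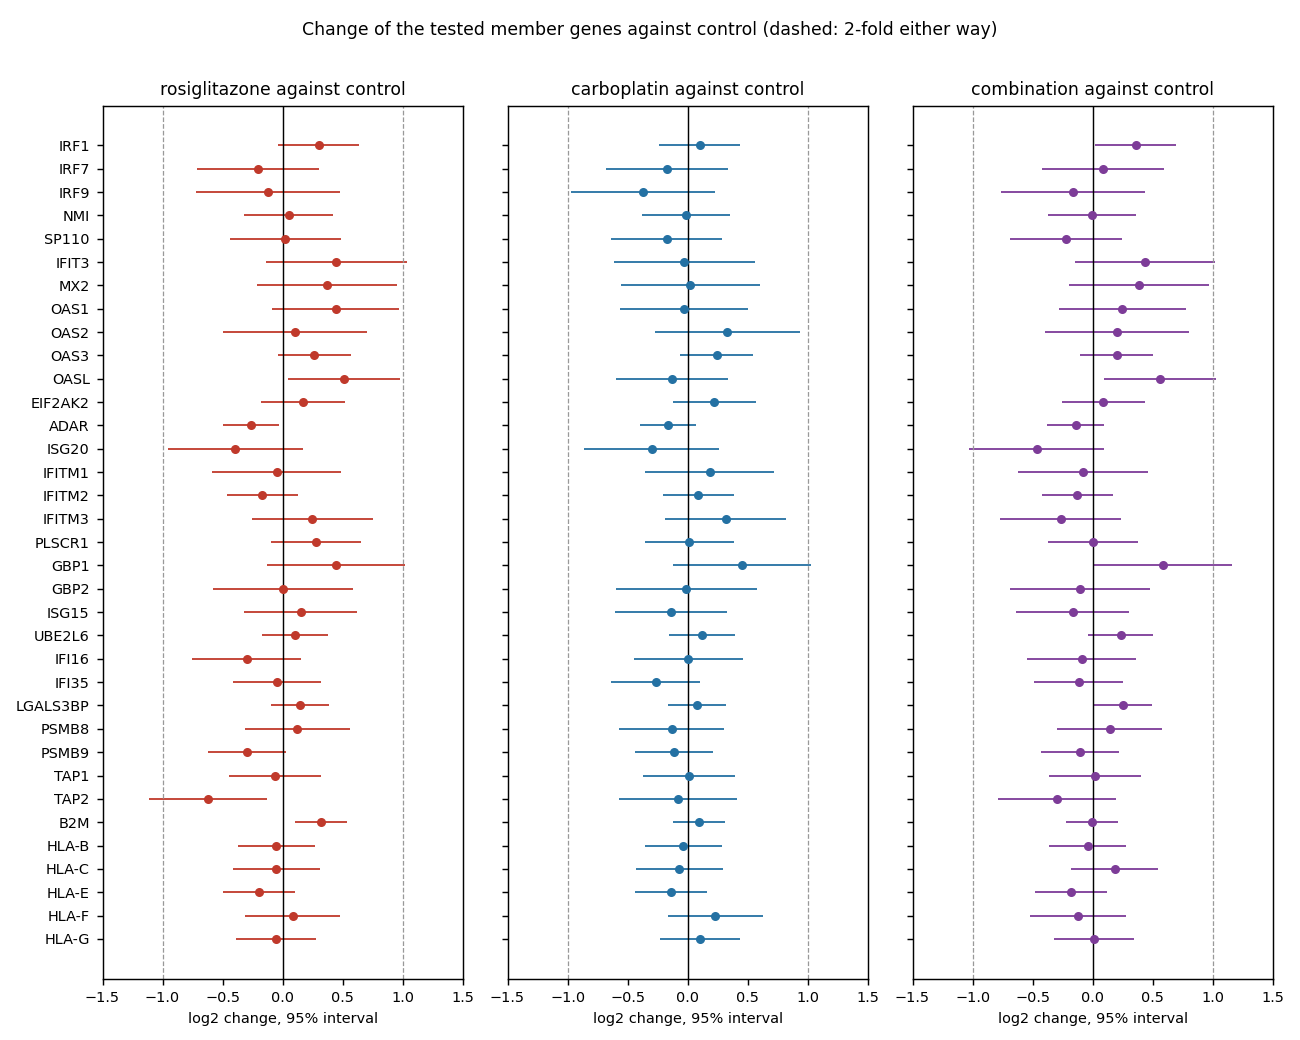
Change of the 35 tested member genes in rosiglitazone, carboplatin and combination arrays against control arrays, on the log2 scale with unadjusted 95% intervals from limma. Most intervals cross 0 and few reach the dashed lines at a 2-fold change.

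For carboplatin against control, the question is what the platinum drug alone did to the set. With limma 0 of 57 probe sets passed, against 2 of 13338 (0.015%) among all, and 2 of 57 (3.51%) had an unadjusted p under 0.05, against 5.17% of all probe sets. The groups did not overlap in 22 of 57 (38.6%), against 35.1% of all, and by gene in 16 of 35 (45.7%), against 35.2% of all genes. The 35 genes were split into 17 higher and 18 lower, with a median change of -0.01 and a median absolute change of 0.12, against -0.02 and 0.14 over all genes. The 95% interval lay inside a 2-fold change for 34 of the 35, the exception being GBP1, and inside a 1.5-fold change for 20. The smallest p-values belonged to OAS3, GBP1 and IFI35.

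OAS3, a synthetase whose product activates the antiviral ribonuclease L, was at 8.50 and 8.64 in carboplatin arrays, against 8.23 and 8.43 in control arrays. This difference of 0.24 ± 0.14 (adjusted p = 0.93) was matched by 8.56 and 8.63 with rosiglitazone and 8.55 and 8.51 with the combination, so all 6 drug arrays lay above both control arrays. GBP1, an interferon-induced GTPase that attacks intracellular pathogens, was at 5.81 and 5.65 with carboplatin and at 5.43 and 5.12 in control, a change of 0.45 ± 0.26 (adjusted p = 0.93). That probe set carries the maker's mark for probes that can read several transcripts, so its value may not be specific to GBP1. The same GBP1 probe set read 5.59 and 5.84 with rosiglitazone and 5.65 and 6.07 with the combination, again above both control arrays. Its control mean of 5.28 lay below the filter level, so it was tested because of the higher values in drug arrays. The second GBP1 probe set lay below the filter and differed from control by 0.53 with carboplatin and -0.02 with the combination in a fit with no filter. IFI35, a leucine zipper protein that binds NMI, was at 7.61 and 7.61 with carboplatin and 7.75 and 8.01 in control (-0.27 ± 0.17, adjusted p = 0.93).

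For the combination against control, the question is what both drugs did together. No member probe set of the 57 passed with limma, against 30 of 13338 (0.225%), and 6 of 57 (10.5%) had an unadjusted p under 0.05, against 8.42% of all. The groups did not overlap in 22 of 57 (38.6%), against 36.8% of all, and by gene in 17 of 35 (48.6%), against 38.1% of all genes. There were 17 higher and 18 lower genes, with a median change of -0.003 and a median absolute change of 0.16, against -0.02 and 0.15 over all genes. The interval lay inside a 2-fold change for 31 of the 35, the others being IFIT3, OASL, ISG20 and GBP1, and inside a 1.5-fold change for 19.

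OASL, a catalytically inactive relative of the OAS enzymes that acts on RNA sensing, was at 7.41 and 6.84 in combination arrays, against 6.45 and 6.68 in control arrays. The change was 0.56 ± 0.21 (1.47-fold, adjusted p = 0.50). IRF1, the transcription factor of interferon gamma responses, was at 8.03 and 7.77 with the combination and at 7.57 and 7.51 in control (0.36 ± 0.15, adjusted p = 0.56). LGALS3BP, a secreted glycoprotein that binds galectins, was at 10.60 and 10.41 with the combination and 10.33 and 10.18 in control (0.25 ± 0.11, adjusted p = 0.57). The arrays of these 3 genes did not overlap between the groups.

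Adding rosiglitazone to carboplatin was read from the combination against carboplatin. Of the 57 probe sets 0 passed with limma, against 21 of 13338 (0.157%), and 3 of 57 (5.26%) had an unadjusted p under 0.05, against 6.43% of all. No overlap was seen in 22 of 57 (38.6%), against 34.3% of all, and by gene in 15 of 35 (42.9%), against 35.1% of all genes. OASL was at 7.41 and 6.84 with the combination, against 6.46 and 6.41 with carboplatin (0.69 ± 0.21, 1.61-fold, adjusted p = 0.49). IFITM3, a membrane protein that blocks entry of enveloped viruses, was at 7.97 and 8.39 with the combination, against 8.96 and 8.57 with carboplatin (-0.58 ± 0.23, adjusted p = 0.69). HLA-F, a nonclassical class I heavy chain, was at 8.07 and 7.89 with the combination and 8.35 and 8.32 with carboplatin (-0.35 ± 0.18, adjusted p = 0.83). The 3 tested HLA-F probe sets differed in sign here, with 1 higher and 2 lower (-0.35 to 0.05). The control arrays of IFITM3 (8.80 and 8.10) and of HLA-F (7.84 and 8.37) lay far apart and overlapped the combination arrays.

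Adding carboplatin to rosiglitazone was read from the combination against rosiglitazone. Here too 0 of 57 probe sets passed with limma, against 3 of 13338 (0.0225%), and 4 of 57 (7.02%) had an unadjusted p under 0.05, against 4.54% of all. No overlap was seen in 20 of 57 (35.1%), against 31% of all, and by gene in 14 of 35 (40%), against 30.7% of all genes. B2M was at 11.33 and 11.49 with the combination, against 11.74 and 11.72 with rosiglitazone, a change of -0.32 ± 0.10 (adjusted p = 1.00), while the other B2M probe set differed by 0.06. IFITM3, at 7.97 and 8.39 with the combination, was at 8.72 and 8.67 with rosiglitazone (-0.51 ± 0.23). PLSCR1, a phospholipid scramblase induced by interferon, was at 8.11 and 8.51 with the combination and 8.61 and 8.56 with rosiglitazone (-0.28 ± 0.17), and its second probe set differed in sign (0.10).

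The interaction asks whether the difference made by rosiglitazone was another with carboplatin than without. With limma 0 of 57 and 0 of 13338 (0%) passed, while 3 of 57 (5.26%) had an unadjusted p under 0.05, against 5.97% of all. In 2 of 57 (3.51%) the 4 combination and control arrays lay wholly above or below the 4 arrays of the single drugs, against 2.86% of all. For IFITM3 the rosiglitazone change was -0.58 with carboplatin and 0.25 without it, a difference of -0.83 ± 0.32 (adjusted p = 0.82). For B2M it was -0.10 with carboplatin and 0.32 without (-0.42 ± 0.14, adjusted p = 0.82), but the other B2M probe set had an interaction of 0.03. For ADAR it was 0.02 with and -0.26 without (0.29 ± 0.15, adjusted p = 0.84).

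Over both backgrounds, the 4 rosiglitazone-treated arrays were set against the 4 without. The limma fit called 0 of 57 probe sets, against 118 of 13338 (0.885%), and 5 of 57 (8.77%) had an unadjusted p under 0.05, against 9.96% of all. In 7 of the 57 member probe sets (12.3%) the 4 arrays with rosiglitazone lay wholly beyond the 4 without, against 6.15% of all probe sets, and by gene in 6 of 35 (17.1%), against 7.04% of all genes. All 7 were higher with rosiglitazone, against 3.2% of all probe sets, and they belonged to OASL, IRF1, IFIT3, OAS1 with 2 probe sets, MX2 and LGALS3BP. They are all read from the same 8 arrays, and IFIT3, OAS1 and MX2 were named after their values were seen. With the deposited scaling 3 of 57 did not overlap, those of OASL, IRF1 and 1 of the OAS1 probe sets, and 4.03% of all probe sets.

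OASL had the smallest p among them. It read 7.15 and 7.01 under rosiglitazone and 7.41 and 6.84 under the combination, against 6.46 and 6.41 under carboplatin and 6.45 and 6.68 in control. The change was 0.60 ± 0.15 (1.52-fold, adjusted p = 0.125), and it was 0.78 with an adjusted p of 0.041 once array brightness was a covariate, the 1 setting in which a member passed. Its second probe set, at 6.42 and 6.97 under rosiglitazone and 6.64 and 6.49 under the combination, overlapped 6.36 and 6.03 under carboplatin and 6.15 and 6.90 in control.

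Next, IRF1 was at 7.86 and 7.81 under rosiglitazone and 8.03 and 7.77 under the combination, against 7.65 and 7.63 under carboplatin and 7.57 and 7.51 in control (0.28 ± 0.11, adjusted p = 0.40). IFIT3, which binds viral RNA as a partner of IFIT1, was at 6.53 and 6.51 under rosiglitazone and 6.61 and 6.41 under the combination, against 5.72 and 6.38 under carboplatin and 6.35 and 5.80 in control (0.46 ± 0.19, adjusted p = 0.44). For IFIT3 the lowest array with rosiglitazone, at 6.41, was next to the highest without it, at 6.38. OAS1, like OAS3 an activator of ribonuclease L, was at 5.78 and 5.95 under rosiglitazone and 5.60 and 5.73 under the combination, against 5.46 and 5.32 under carboplatin and 5.47 and 5.37 in control (0.36 ± 0.17, adjusted p = 0.53).

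MX2, a GTPase that restricts HIV, was at 5.91 and 5.66 under rosiglitazone and 5.61 and 6.0 under the combination, against 5.56 and 5.32 under carboplatin and 5.57 and 5.27 in control (0.37 ± 0.19, adjusted p = 0.57). For LGALS3BP the difference was 0.16 ± 0.08 (adjusted p = 0.55). TAP2 ran the other way, with 6.45 and 6.23 under rosiglitazone and 6.85 and 6.49 under the combination, against 7.15 and 6.62 under carboplatin and 7.03 and 6.90 in control (-0.42 ± 0.16, adjusted p = 0.38), and its groups overlapped.

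The 4 carboplatin-treated arrays against the 4 without gave no call among the 57 with limma, against 4 of 13338 (0.03%), and 2 of 57 (3.51%) had an unadjusted p under 0.05, against 4.02% of all. The groups did not overlap in 1 of 57, against 2.36% of all. The representative probe sets of smallest p were those of GBP1 (0.30 ± 0.19), B2M (-0.11 ± 0.07) and ISG15 (-0.23 ± 0.15), each with an adjusted p of 1.00. ISG15, the ubiquitin-like protein that is attached to other proteins during an interferon response, was at 6.64 and 6.54 under carboplatin and 6.76 and 6.36 under the combination, against 7.10 and 6.66 under rosiglitazone and 6.73 and 6.73 in control.

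EIF2AK2, the kinase PKR that halts translation when it meets double-stranded RNA, was singled out after its values were seen, since its dimmer probe set held the carboplatin arrays apart. It carries the mark that the array maker gives to probes that can read several transcripts, so the value may not be specific to EIF2AK2. That probe set was at 8.29 and 7.81 under carboplatin and 8.52 and 8.04 under the combination, against 7.56 and 7.76 under rosiglitazone and 7.57 and 7.28 in control. The change was 0.62 ± 0.15 (1.54-fold, adjusted p = 0.92), and the 4 arrays with carboplatin lay above the 4 without, which 1.2% of all probe sets did. Against control it changed by 0.63 with carboplatin and 0.85 with the combination, the highest values of any tested member probe set. For the combination against control the smallest adjusted p of the member probe sets with limma was 0.20. The brighter EIF2AK2 probe set, at 7.88 and 8.14 under carboplatin and 7.84 and 7.91 under the combination, against 7.91 and 8.01 under rosiglitazone and 7.90 and 7.68 in control, did not separate them.

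**Figure D3:**
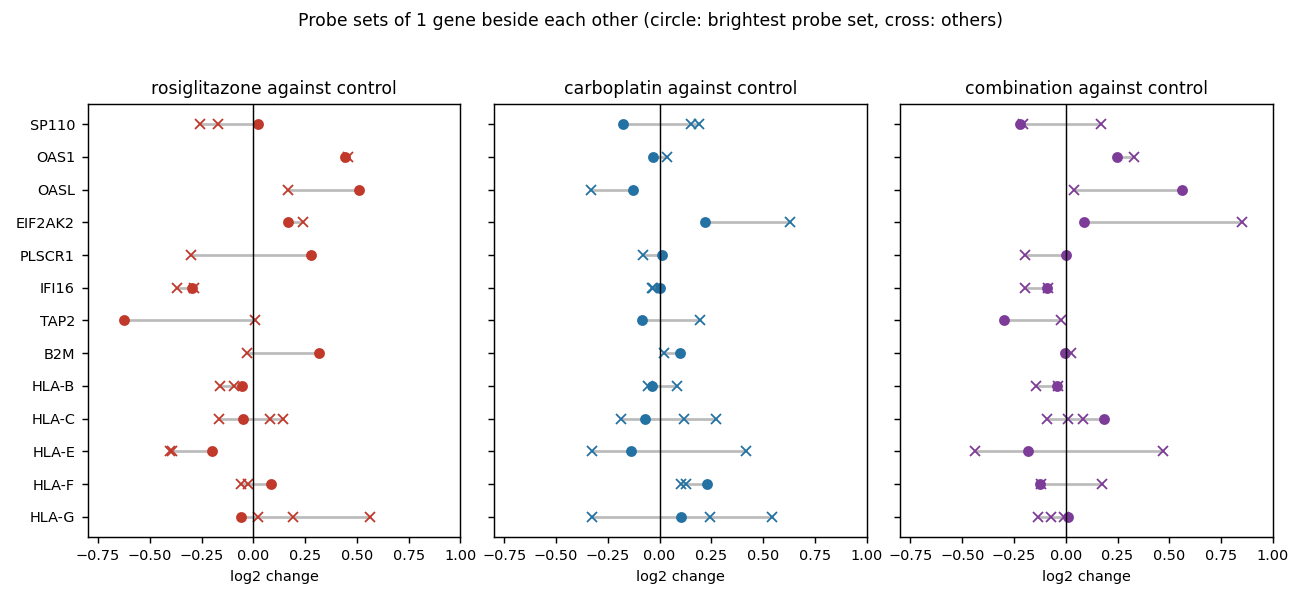
Log2 change against control of each tested probe set of the 13 member genes with more than 1, a circle for the brightest and a cross for each other probe set. Probe sets of EIF2AK2, TAP2, HLA-E and HLA-G spread over more than 0.6 in at least 1 panel.

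Disagreement between probe sets of a gene was common. Of the 13 genes with several tested probe sets, 6 had all of them on 1 side of 0 for rosiglitazone against control, 4 for carboplatin against control and 6 for the combination against control. For HLA-G, a nonclassical class I heavy chain, the differences of the 4 probe sets from control were -0.06 to 0.56 under rosiglitazone and -0.33 to 0.54 under carboplatin. One of the dimmer HLA-G probe sets, chosen after its values were seen, was at 8.02 and 7.82 under rosiglitazone, 7.93 and 7.87 under carboplatin, 7.02 and 7.68 under the combination and 7.62 and 7.10 in control. Its interaction of -1.11 ± 0.33 (adjusted p = 0.82) was not shared by the brightest HLA-G probe set (-0.04).

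HLA transcripts are near-identical, and 15 of the 17 HLA probe sets carry the x mark of probes that can read several transcripts, so which heavy chain a value belongs to is uncertain. The same holds for IFITM2 and IFITM3, which are close copies and whose probe sets carry that mark too. For the classical heavy chain HLA-C the brightest probe set was at 9.39 and 9.82 under rosiglitazone, 9.56 and 9.61 under carboplatin, 9.98 and 9.69 under the combination and 9.52 and 9.79 in control. HLA-B, another classical heavy chain, differed from control by -0.06 under rosiglitazone, -0.04 under carboplatin and -0.04 under the combination in its brightest probe set. HLA-E, the ligand of an inhibitory receptor of natural killer cells, differed by -0.20, -0.14 and -0.18 in the same order in its brightest probe set, which carries the x mark. The only 1 of its 3 probe sets without the mark differed by 0.42 with carboplatin and 0.47 with the combination. That probe set was dim, and its control arrays, at 6.10 and 5.41, lay far apart. All 3 were lower with rosiglitazone. Over the 6 class I genes the median change was -0.05 under rosiglitazone, 0.03 under carboplatin and -0.02 under the combination.

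Of the peptide supply genes other than TAP2, none passed either. The immunoproteasome subunit PSMB9 was at 7.59 and 7.52 under rosiglitazone, 7.78 and 7.69 under carboplatin and 7.68 and 7.81 under the combination, against 7.82 and 7.88 in control. All 6 drug arrays were below both control arrays for PSMB9, by 0.30 at most in group means (adjusted p = 0.52 for rosiglitazone). PSMB8, its companion subunit, was at 7.12 and 7.69 under rosiglitazone, 7.22 and 7.08 under carboplatin, 7.35 and 7.50 under the combination and 7.23 and 7.33 in control. TAP1, the partner of TAP2 in the transporter, differed from control by -0.06, 0.01 and 0.02 with rosiglitazone, carboplatin and the combination.

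Among signalling genes, NMI, which binds STAT proteins, was at 7.98 and 7.85 under rosiglitazone, 8.03 and 7.68 under carboplatin, 7.82 and 7.90 under the combination and 7.75 and 7.98 in control, with changes of 0.05, -0.01 and -0.01. The interferon regulatory factors IRF7 and IRF9 differed from control by -0.21 and -0.12 under rosiglitazone, by -0.17 and -0.37 under carboplatin and by 0.09 and -0.16 under the combination. UBE2L6, the conjugating enzyme for ISG15, was at 8.70 and 8.70 under rosiglitazone, 8.70 and 8.73 under carboplatin and 8.86 and 8.79 under the combination, against 8.60 and 8.60 in control. All 6 drug arrays were above both control arrays for UBE2L6, with a change of 0.23 ± 0.12 for the combination (adjusted p = 0.67). In brightest probe sets the same held for OAS3, GBP1, IRF1 and LGALS3BP, while for PSMB9, ADAR, ISG20 and HLA-E all 6 lay below. The control mean of GBP1 (5.28) lay below the filter level, so it was tested because of its higher values in drug arrays. The share of all probe sets with such a split was not counted, and each split rests on the same control arrays. These lists therefore describe the arrays and are not read as a trait of the members. IFITM2, a relative of IFITM3, was at 8.91 and 8.85 under rosiglitazone, 9.03 and 9.24 under carboplatin, 8.88 and 8.96 under the combination and 8.95 and 9.14 in control.

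Of the 15 antiviral effector genes tested, 11 were higher and 4 lower under rosiglitazone (median 0.25), 9 higher and 6 lower under carboplatin (median 0.02) and 9 higher and 6 lower under the combination (median 0.09). Among all 8030 genes 44.1% were higher in rosiglitazone arrays. With rosiglitazone added to carboplatin 6 of the 15 were higher and 9 lower (median -0.04), and for rosiglitazone over both backgrounds 8 were higher and 7 lower (median 0.02). The 4 tested genes that were lower with rosiglitazone than in control were ADAR, ISG20, IFITM1 and IFITM2. The effectors IFIT1, MX1 and BST2 lay below the filter and are not in these counts. In a fit with no filter they differed from control by -0.56, -0.10 and -0.04 with rosiglitazone. With carboplatin it was -0.15, -0.86 and 0.05, and with the combination -0.31, -0.38 and 0.01. GBP1, counted among the higher genes, was tested because of its higher values in drug arrays. With the deposited scaling in place of quantile normalization the median of all probe sets for rosiglitazone against control was itself 0.22, in place of -0.01.

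A further 7 genes lay below the filter and were not tested with the rest. IFIT1, MX1 and IFI6 are given by array below, a choice made after their values were seen. The 7 were IFIT1, MX1, BST2, IFI6, IFI27, IFI44 and IFI44L, several of which are among the genes most strongly induced by type I interferon. IFI44L was at 4.09 to 4.24 in all 8 arrays and the tetherin gene BST2 at 4.21 to 4.47, near the floor of the scale, with deposited signals of at most 3.04 and 5.57. IFIT1 was at 4.41 and 4.45 under rosiglitazone, 4.44 and 5.25 under carboplatin and 4.51 and 4.85 under the combination, against 5.61 and 4.37 in control, so its control arrays differed by more than any group means did. MX1 was at 5.19 and 5.44 under rosiglitazone, 4.75 and 4.36 under carboplatin, 4.97 and 5.09 under the combination and 5.03 and 5.79 in control.

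IFI6, which protects mitochondria and blocks flavivirus replication, was at 4.98 and 4.34 under rosiglitazone, 5.88 and 5.33 under carboplatin, 5.16 and 4.44 under the combination and 5.66 and 5.07 in control. In a fit with no filter the rosiglitazone change over both backgrounds was -0.76 ± 0.26 for IFI6 and 0.31 ± 0.15 for IFI27, and the carboplatin change, likewise over both, was -0.57 ± 0.21 for MX1. No member probe set below the filter was called in that fit, and the smallest adjusted p was 0.46. The table holds no detection calls, so whether such a gene was detected cannot be stated.

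**Figure D4:**
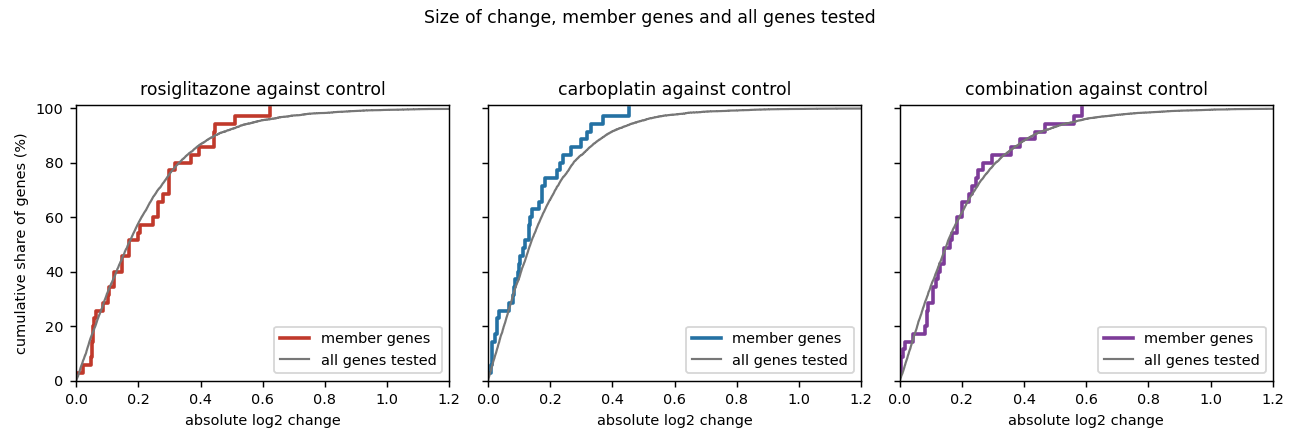
Cumulative share of genes, in percent, by absolute log2 change against control, for the 35 member genes and for all 8030 genes tested. For rosiglitazone the median is 0.17 in both curves, and for the combination it is 0.16 in the members and 0.15 in all genes.

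Other genes of the pathway gave no call either. Of 64 further receptors, kinases, factors, regulators, sensors, ligands and interferon-induced or presentation genes, 55 had a probe set and 39 were above the filter. None of the 39 passed with limma in any of the 8 comparisons. With rosiglitazone 19 were higher and 20 lower, with carboplatin 20 higher and 19 lower, and with the combination 26 higher and 13 lower. The interferon genes IFNB1, IFNA1 and IFNG lay below the filter.

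CIITA and IFNAR2 were named after their values were seen. CIITA, the master regulator of class II genes, was at 6.50 and 5.56 under rosiglitazone, 6.34 and 6.29 under carboplatin, 4.67 and 5.91 under the combination and 4.69 and 5.17 in control (carboplatin change 1.38 ± 0.42, adjusted p = 0.88). The control arrays of CIITA and its combination array at 4.67 lay below the filter level, so CIITA was tested because of higher values in other arrays. The CIITA targets HLA-DRA and CD74 were below the filter. HLA-DMA, a further class II gene, was above it. It differed from control by -0.28 ± 0.30 with rosiglitazone and -0.26 ± 0.30 with carboplatin, with overlapping arrays in both. IFNAR2, the signalling chain of the type I receptor, was at 6.93 and 7.11 with rosiglitazone, against 7.51 and 7.79 in control (-0.63 ± 0.20, adjusted p = 0.30). The IFNAR2 probe set carries the x mark of probes that can read several transcripts, so its value may not be specific to IFNAR2.

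The tested members with the response element core in the promoter entry were set beside the tested members without it. With rosiglitazone 11 of 15 such genes were higher (median 0.15), against 5 of 13 genes without it (median -0.05). With carboplatin the counts were 10 of 15 (median 0.08) against 4 of 13 (median -0.07), and with the combination 7 of 15 (median -0.003) against 6 of 13 (median -0.04). Among all genes tested 44.1%, 45.5% and 46.1% were higher, in the same order. These 3 comparisons share the control arrays, and GBP1, which holds the core, was tested because of its higher values in drug arrays. The split ran the other way for the combination against carboplatin, where 5 of 15 genes with the core (median -0.04) and 9 of 13 without it (median 0.11) were higher. For the combination against rosiglitazone it was 4 of 15 (median -0.06) and 9 of 13 (median 0.06). In the interaction 5 of 15 with the core (median -0.21) and 9 of 13 without it (median 0.15) were above 0. For rosiglitazone over both backgrounds 9 of 15 (median 0.03) and 7 of 13 (median 0.04) were higher. IFIT1, MX1, BST2, IFI6, IFI27, IFI44 and IFI44L also hold the core but lay below the filter, so they are not in this split. In a fit with no filter they differed from control by -0.56, -0.10, -0.04, -0.71, 0.10, -0.14 and -0.02 with rosiglitazone, in that order. With carboplatin these values were -0.15, -0.86, 0.05, 0.24, -0.27, -0.25 and -0.06. With the combination they were -0.31, -0.38, 0.01, -0.57, 0.25, 0.02 and 0.01. The other 7 tested genes had no promoter entry, and no test was made.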

How the data were processed

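RNA of 8 samples was measured on Affymetrix human genome arrays. The authors deposited a linear intensity for each probe set. How it was made (software, background, scaling) was not given in the sources used here, and the groups come from the sample titles. These intensities were taken as log2(signal + 16) and quantile normalized. After leaving out 68 control probe sets and those below the 40th percentile in mean, limma 3.58.1 (R 4.3.3) fitted group means over the 8 arrays, with eBayes and an intensity trend (4 residual and 7.1 prior degrees of freedom). Tests were two-sided, adjusted by Benjamini-Hochberg over 13338 probe sets, with a threshold of 0.05, and the code was tested on simulated data. In the annotation, 19071 probe sets have 1 symbol, 1043 several and 2169 none. The value in each array is given for the 3 members of smallest p in each comparison and the 2 brightest of each role, and others were added after their values were seen and are named so. The members, gene lists and comparisons were chosen with earlier results of these data known. Alternatives were other scalings, pseudocounts of 1 and 64, other filters, no intensity trend, only the groups compared, a replicate block, array brightness as a covariate, and leaving out each array.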

Additional observations from a re-analysis of the deposited data

How the results depend on the processing

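No member probe set was called in any comparison under the other scalings, pseudocounts, filters, the fit without a trend, the fit of only the groups compared, or without any 1 array (a range of 0 to 0 calls). With array brightness as a covariate 1 member probe set was called, that of OASL for rosiglitazone over both backgrounds (0.78, adjusted p = 0.041), and 0 in the other comparisons. With the replicate block the count was 0 in all 8 comparisons. The replicate numbers are not stated to mark a shared batch, and deviations of same-numbered arrays correlated between -0.11 and 0.25, so they were not taken as pairs. The changes of the members named for their small p kept their sign under each alternative in which they were tested. So did the later-named changes of IFIT3, OAS1, MX2 and LGALS3BP, and of the single probe sets of EIF2AK2 and HLA-G. IFIT1, MX1, IFI6, CIITA and IFNAR2 were not checked in this way. Counts over all probe sets moved more, from 48 to between 3 and 70 for rosiglitazone against control, from 2 to between 0 and 2 for carboplatin, from 30 to between 5 and 46 for the combination, and from 118 to between 36 and 142 for rosiglitazone over both backgrounds. The median member change for rosiglitazone against control was 0.28 with the deposited scaling, where that of all probe sets was 0.22, and it was -0.04 without control replicate 1. The member probe sets with no overlap for rosiglitazone over both backgrounds numbered 3 with the deposited scaling, in place of 7, and 7 with median scaling, 1 of them lower, a check added after seeing the data. A group left with 1 array by such an omission takes its spread from the other groups. Signal over background is unknown, which limits every value near the floor.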
